A study of Mus musculus with 21 samples.

Results

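The MHC class I presentation genes followed here are 9 genes that make, load and control the class I molecules of the cell surface: H2-K1, H2-D1, B2m, Tap1, Tap2, Tapbp, Tapbpl, Nlrc5 and Erap1. They were taken by symbol from the deposited log-scale table and by gene ID from the count table, and all 9 of the 9 named genes were found among 47643 genes with counts and 15249 genes with log-scale values. The rule names the genes and uses no expression value, though it was set with earlier results of these data known. Their RNA was read by 3' mRNA sequencing in CD4+ T cells sorted from the spleen of Tg4 Tiger Nr4a3-Tocky mice, in which the T cells carry a transgenic receptor for myelin basic protein, Tiger reports Il10 through GFP and Tocky reports Nr4a3 through a fluorescent Timer protein that is made blue and matures to red. The study asked how the dose of antigen shapes the response of T cells, and 6 groups of 3 mice were given 0.8 µg or 80 µg of the [4Y] MBP peptide under the skin, without adjuvant, 4 h, 12 h or 24 h before the cells were taken. The control group was 3 untreated mice of the same line.

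All groups carried the transgenic receptor and both reporters. Per the study's methods the Timer gate took cells that were blue but not red for the 4 h groups, cells with both colours for the 12 h groups and cells that were red but no longer blue for the 24 h groups. Gate and time thus changed together and cannot be told apart. The gate of the control cells was not given in the sources used here, and the sort kept responding cells from immunised mice, so a difference from control sets sorted responders against cells of untreated mice. In such bulk samples a smaller number of cells with a transcript and less of it per cell cannot be told apart. The H-2 haplotype of the mice was not given either. H2-K1 and H2-D1 differ in sequence between haplotypes, and the reads were mapped to a reference of the C57BL/6J strain.

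Class I molecules show peptides from inside the cell to CD8+ T cells, and almost every nucleated cell carries them. A heavy chain such as H2-K1 or H2-D1 pairs with the light chain beta-2-microglobulin, the product of B2m. Peptides cut by the proteasome are pumped into the endoplasmic reticulum by the TAP transporter, a dimer of Tap1 and Tap2, trimmed there by the aminopeptidase ERAP1, and fitted into the groove with the help of tapasin (Tapbp) and of its relative TAPBPR (Tapbpl), both of which edit the peptides. NLRC5 is a transactivator that works at class I promoters together with the RFX, CREB and NF-Y factors bound there, and interferon and NF-kB signals act on the same genes through sites of their own. The peptide given here is itself seen by the transgenic T cells on a class II molecule, so the class I genes describe the responding cells and not the presentation of that peptide.

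In GRCm38 with the GENCODE vM21 annotation, 5 of the 9 genes lie in the MHC on chromosome 17. These are Tapbp (chr17:33915899-33929292, plus strand), H2-K1 (chr17:33996017-34000347, minus strand), Tap1 (chr17:34187553-34197225, plus strand), Tap2 (chr17:34203527-34216321, plus strand) and H2-D1 (chr17:35262730-35267499, plus strand). The other 4 are B2m (chr2:122147686-122153083, plus strand), Tapbpl (chr6:125223933-125231860, minus strand), Nlrc5 (chr8:94434356-94527272, plus strand) and Erap1 (chr13:74639568-74693201, plus strand). The reads come from the 3' ends of transcripts. Exons of Tap1 overlap Psmb9, those of Erap1 overlap Cast, and those of Tap2 and Nlrc5 overlap non-coding genes, all on the opposite strand, while Tapbp shares exon sequence with Zbtb22 on its own strand. The strand setting of the counting was not given, so for these 5 genes reads of the neighbour cannot be set apart. Of the last 300 bases of each transcript, cut into all words of 50 bases, H2-K1 shared 0.797% with another gene (H2-D1). H2-D1 shared 17.1% with at least 6 other genes, among them Adsl and Kcnk4, and the other 7 members shared none.

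Promoters were available from RefSeq (GRCm38.p6, 250 bases before to 50 after the start of a gene) for 6 of the 9 members, and 5 are shown because the control of these genes is best known from their promoters. They are printed 5' to 3' on the strand of the gene. H2-K1 had another RefSeq start nearby, whose window holds the same matches and is not shown. H2-K1 is chr17:34000298-34000597 on the minus strand, and on the plus strand H2-D1 is chr17:35262844-35263143, B2m is chr2:122147437-122147736, Tap1 is chr17:34187306-34187605 and Erap1 is chr13:74639603-74639902. Capitals mark every match, on either strand, to CCAAT (the NF-Y box), TGACG (the core of the CREB-type X2 box), GAANNGAAA or the full repeat, in which GAAA stands on both sides of the spacer (sites of the interferon regulatory factors) and GGGNNTTCC (an NF-kB site). TTCNNNGAA, the STAT site, was searched too.
H2-K1: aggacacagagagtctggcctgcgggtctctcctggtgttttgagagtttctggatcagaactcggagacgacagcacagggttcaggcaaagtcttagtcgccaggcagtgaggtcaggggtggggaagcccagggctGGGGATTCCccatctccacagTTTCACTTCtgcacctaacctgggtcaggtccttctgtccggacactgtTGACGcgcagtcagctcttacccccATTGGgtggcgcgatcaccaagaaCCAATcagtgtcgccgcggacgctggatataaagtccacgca
H2-D1: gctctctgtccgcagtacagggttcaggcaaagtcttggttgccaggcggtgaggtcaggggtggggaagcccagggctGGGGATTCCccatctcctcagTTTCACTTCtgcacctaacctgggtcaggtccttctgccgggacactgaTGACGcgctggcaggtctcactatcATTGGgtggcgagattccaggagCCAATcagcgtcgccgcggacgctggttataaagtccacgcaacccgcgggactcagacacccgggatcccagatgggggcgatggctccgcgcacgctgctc
B2m: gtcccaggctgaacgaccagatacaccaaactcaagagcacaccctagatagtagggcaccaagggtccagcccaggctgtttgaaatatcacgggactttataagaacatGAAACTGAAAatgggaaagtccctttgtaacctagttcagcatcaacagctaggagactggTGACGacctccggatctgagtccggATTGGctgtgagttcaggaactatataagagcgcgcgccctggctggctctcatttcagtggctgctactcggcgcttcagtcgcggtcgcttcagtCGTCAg
Tap1: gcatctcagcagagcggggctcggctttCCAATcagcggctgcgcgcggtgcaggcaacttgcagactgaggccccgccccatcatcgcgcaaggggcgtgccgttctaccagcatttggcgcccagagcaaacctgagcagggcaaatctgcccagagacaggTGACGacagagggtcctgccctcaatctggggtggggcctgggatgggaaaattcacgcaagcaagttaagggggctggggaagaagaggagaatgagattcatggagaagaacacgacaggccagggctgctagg
Erap1: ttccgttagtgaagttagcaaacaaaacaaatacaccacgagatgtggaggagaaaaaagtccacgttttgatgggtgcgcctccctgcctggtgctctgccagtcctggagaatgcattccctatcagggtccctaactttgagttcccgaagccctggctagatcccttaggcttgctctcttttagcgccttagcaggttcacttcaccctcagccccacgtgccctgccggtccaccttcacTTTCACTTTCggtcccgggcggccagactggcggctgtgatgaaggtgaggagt

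H2-K1 and H2-D1 held the same 5 matches in the same order, an NF-kB site (GGGGATTCC), an interferon regulatory factor site (TTTCACTTC), the X2 core and a pair of NF-Y boxes, the first on the opposite strand and the second as CCAAT, which began at -111, -90, -41, -16 and 8 from the RefSeq start in H2-K1 and at -171, -150, -101, -76 and -53 in H2-D1. B2m held the interferon regulatory factor repeat GAAACTGAAA at -139, the X2 core at -78, an NF-Y box on the opposite strand at -53 and a further X2 core on the opposite strand at 44. Tap1 held the NF-Y box at -222 and the X2 core at -86. The Erap1 promoter held only the repeat TTTCACTTTC, at -4, and that of Tapbp only NF-Y boxes on the opposite strand, at -248 and -165. None of the 6 promoters searched held a STAT site in this window. Of 27025 promoters of this length, 37.9% held CCAAT, 21% TGACG, 7.6% GAANNGAAA, 3.5% the longer repeat, 5.7% the NF-kB site and 8.5% the STAT site. Such a match describes letters and was not tested for binding, and a missing match says nothing about the factor.

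The 21 libraries held between 2352800 and 6244279 counts. Replicate 3 of 0.8 µg at 12 h stood apart from its group, with a chi-square per degree of freedom over genes of 14.8 and 14.4 against the other 2 libraries, which had 3.35 between them. All other pairs within groups lay between 3.47 and 9.49. The 2 highest of these, 8.70 and 9.49, were those of replicate 2 of 80 µg at 12 h, whose other 2 libraries had 4.87 between them. Without replicate 3 of 0.8 µg at 12 h the same number of members was called against control at 12 h (7 of 9) and from 12 h to 24 h (5 of 9), and from 4 h to 12 h 1 of 9 in place of 2. With all libraries, 20.5% of all genes were called lower than control after 0.8 µg at 12 h. From 12 h to 24 h 17.1% were called higher, and from 4 h to 12 h 7.98% lower. Levels are given below as normalised counts, the reads of a gene divided by the size factor of the library, and since they are not divided by length they are compared between groups and not between genes. Differences are shrunken log2 fold changes from DESeq2, and a gene is called higher or lower, and said to rise or fall, where the Benjamini-Hochberg adjusted p over all genes tested was under 0.05 and the log2 fold change was over 1 in size. CD4 T cell markers were present in every library, their sum (9 genes) lying between 3930 and 4159 CPM in control cells, between 1672 and 2318 at 4 h and 12 h and between 3299 and 3807 at 24 h. The 6 B cell markers summed to 374 to 395 in control, 29.2 to 81.7 at 4 h and 12 h and 288 to 398 at 24 h. Most of this was Ighm (332 to 358, 21.5 to 64.1 and 264 to 386), while Cd79a was at 0 in at least 2 of the 3 libraries of each group. Cd8b1 and Cd8a together summed to between 13.1 and 51.3, with Cd8a at 14.3 to 17.8 after 0.8 µg at 12 h and at most 3.96 in the other groups. Markers of myeloid and dendritic cells summed to at most 32.0, of NK cells to at most 16.8 and of red cells and platelets to at most 157. The 7 class II genes of antigen presenting cells summed to 78.4 to 171 CPM in control, 25.4 to 62.7 at 4 h, 16.3 to 85.3 at 12 h and 24.7 to 72.7 at 24 h. Of these 7, 3 (0.8 µg) and 4 (80 µg) were called lower than control at 4 h, 4 and 5 at 12 h and 1 and 4 at 24 h, beside 23.4% and 25.1%, 20.5% and 20.1%, and 5.84% and 7.91% of all genes. Ciita, their transactivator, was low throughout, with a mean of 6.98 normalised counts in control and 5.06 after 0.8 µg at 4 h. It was at 0 in all 3 libraries of 80 µg at 4 h. The CD4 T cell sum, Ighm and, at 4 h and 12 h, the class II genes thus moved with time in the direction of most members, and their part in the results was not tested.

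At 12 h 7 of 9 class I presentation genes fell relative to control after 0.8 µg and 6 of 9 after 80 µg, and at 24 h none was called. Tap2 fell at both doses at 4 h and at 12 h, Erap1 rose at both doses at 4 h, and the heavy chains and B2m fell at 12 h. At 4 h after 0.8 µg, 3 of 9 members were called lower (Tap1, Tap2, Nlrc5) and 1 higher (Erap1), where 23.4% and 17.3% of all genes tested were called lower and higher. At 4 h after 80 µg, 2 were called lower (Tap2, Tapbpl) and 1 higher (Erap1), against 25.1% and 18.4% of all genes, so the shares of members called lower and higher at 4 h lay near those of all genes. At 12 h, 20.5% (0.8 µg) and 20.1% (80 µg) of all genes were called lower, and no member was called higher, with 17.2% and 17.8% of all genes called higher.

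**Figure D1:**
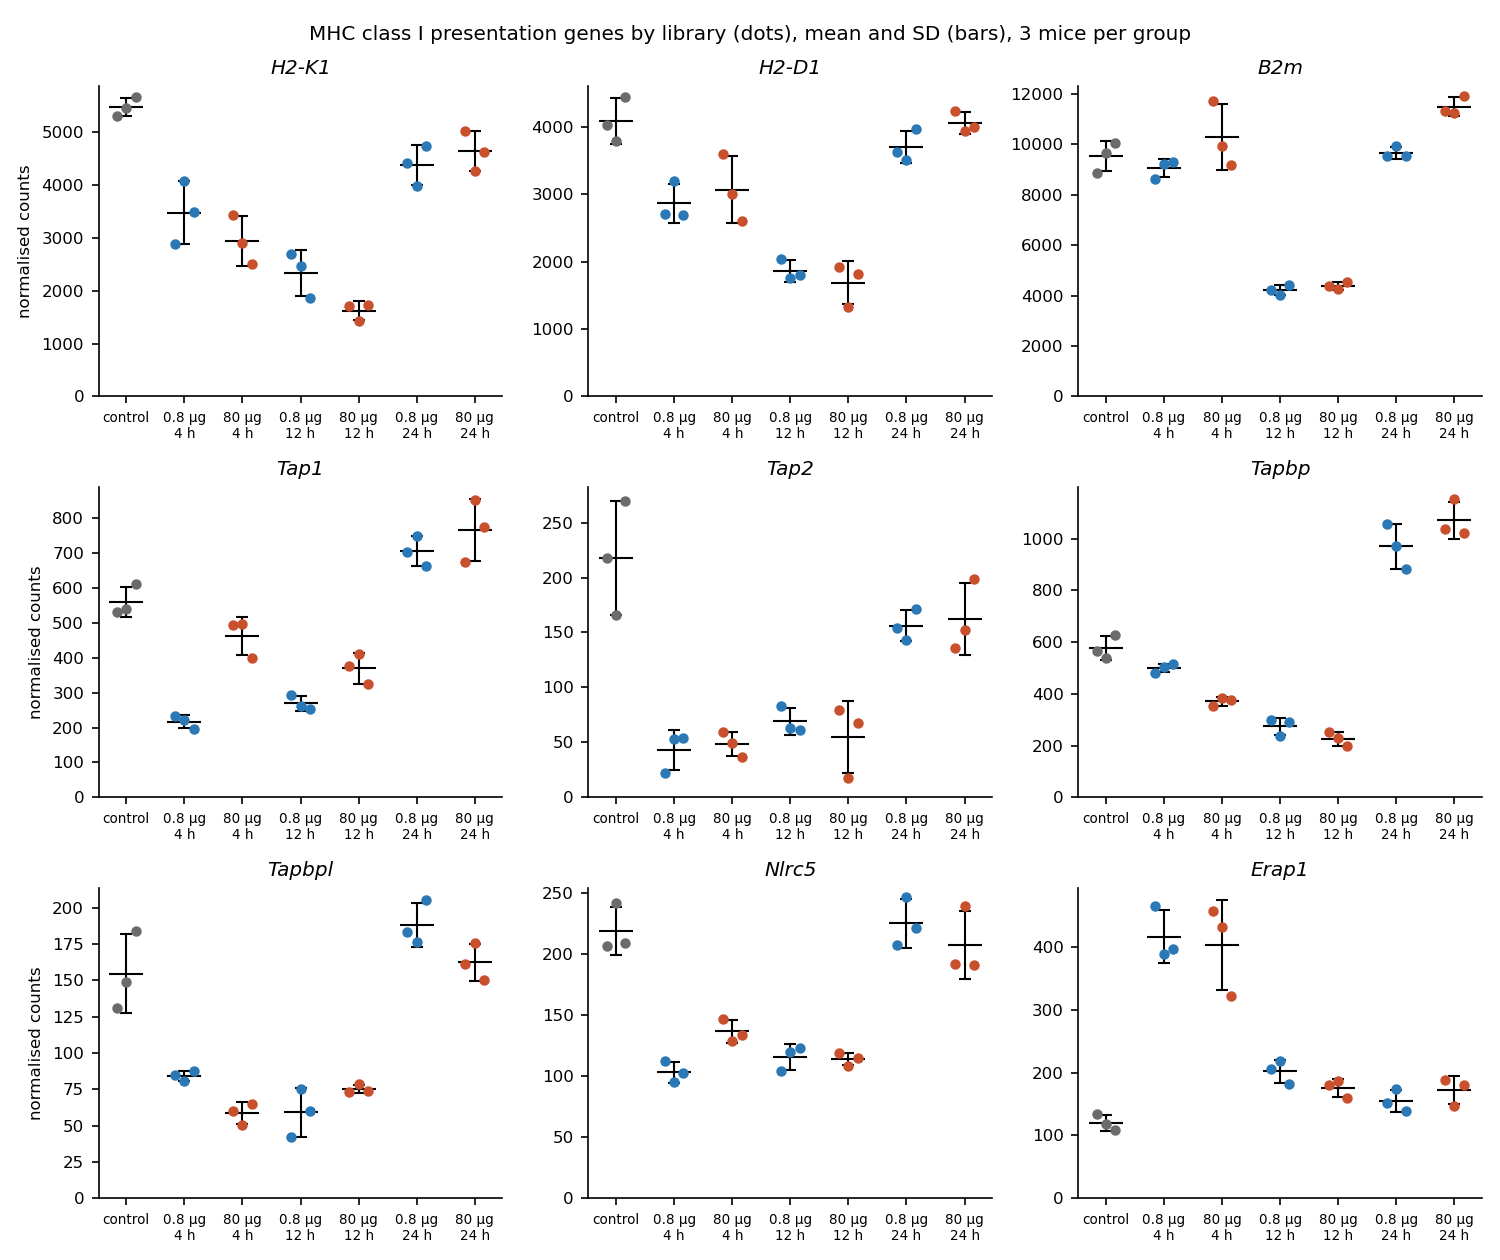
Normalised counts of the 9 genes in each of the 21 libraries (dots, grey for control, blue for 0.8 µg, red for 80 µg) with the mean and SD of 3 mice per group (bars). Each vertical axis starts at 0. All groups at 12 h lie below control except for Erap1, and B2m at 4 h overlaps control.

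The median log2 fold change of the 9 members was -0.65 (0.8 µg) and -0.63 (80 µg) at 4 h and -1.13 and -1.12 at 12 h, where the median over all genes tested lay between -0.15 and -0.11. At 24 h, DESeq2 called 0 of 9 members at either dose, where 17.3% (0.8 µg) and 20.2% (80 µg) of all genes were called in either direction. By the unadjusted p, 4 members at each dose were under 0.05 at 24 h (Tap1, Tapbp and Erap1 at both doses, with H2-K1 after 0.8 µg and B2m after 80 µg), and edgeR called 0 as well. By the adjusted p alone, with no size needed, 7 (0.8 µg) and 8 (80 µg) of 9 members passed at 4 h beside 54.6% and 57.1% of all genes, 9 and 9 at 12 h beside 53.1% and 52.7%, and 3 and 4 at 24 h beside 36% and 39.1%.

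**Figure D2:**
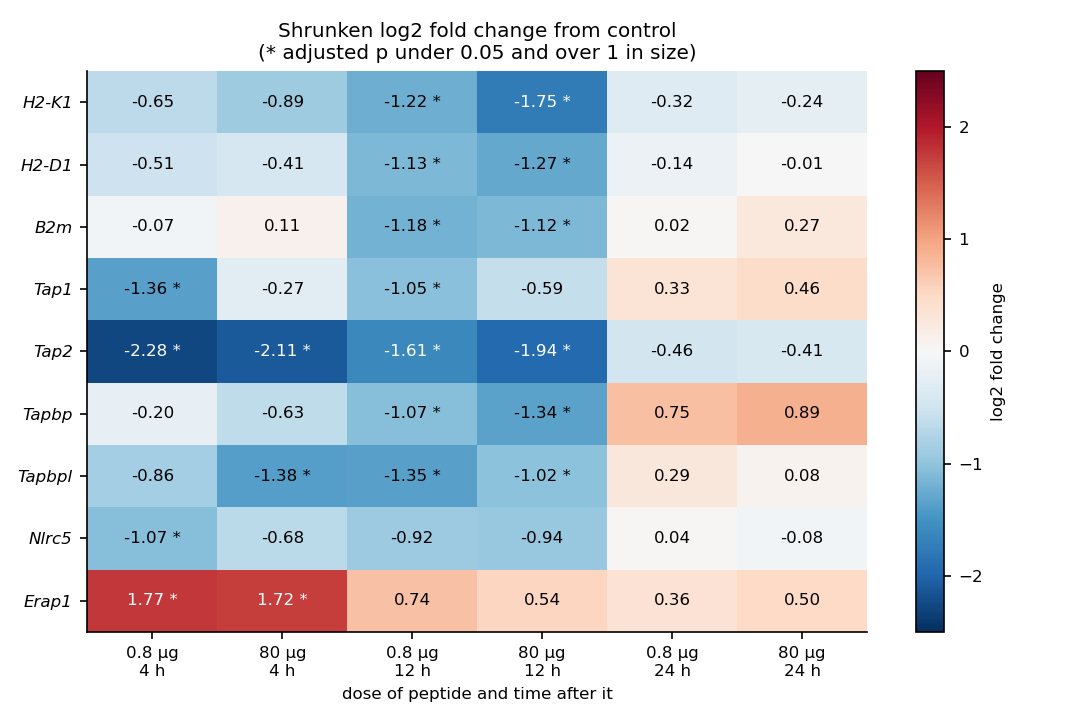
Shrunken log2 fold change of each member from control (colour and printed value) by dose and time, with a star where the gene was called. The 7 stars at 0.8 µg and 6 at 80 µg in the 12 h columns are all negative, and Erap1 at 4 h gives the only positive ones.

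H2-K1, a classical heavy chain, had 5318, 5463 and 5666 normalised counts in the 3 control mice. It had 2876, 4074 and 3493 after 0.8 µg at 4 h and 3443, 2898 and 2504 after 80 µg. At 12 h the values were 2694, 2475 and 1855 after 0.8 µg and 1715, 1425 and 1737 after 80 µg. Every immunised library at 4 h and 12 h was below every control library, and at 12 h the 2 doses did not overlap. On the log2 scale H2-K1 fell by 1.22 (SE 0.13, adjusted p = 2.13e-19) after 0.8 µg and by 1.75 (SE 0.13, adjusted p = 1.76e-38) after 80 µg at 12 h. At 4 h the log2 fold changes of -0.65 (adjusted p = 2.62e-06) and -0.89 (adjusted p = 6.42e-11) did not reach the size needed for a call, though that for 80 µg did without replicate 1 of that group (-1.004) and with libraries scaled by their totals (-1.05). At 24 h H2-K1 was at 4420, 3993 and 4750 after 0.8 µg and 5025, 4276 and 4627 after 80 µg, still below all control mice, with log2 fold changes of -0.32 (adjusted p = 0.0426) and -0.24 (adjusted p = 0.141).

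H2-D1, the other classical heavy chain measured, had 4029, 3783 and 4448 normalised counts in control. It had 2699, 3193 and 2698 after 0.8 µg at 4 h, and 3602, 2998 and 2603 after 80 µg. At 12 h it had 2045, 1750 and 1794 after 0.8 µg and 1914, 1320 and 1820 after 80 µg. The doses overlapped at each of these times and no library reached the control range. H2-D1 fell at 12 h by 1.13 (SE 0.12, adjusted p = 1.73e-19) and by 1.27 (SE 0.12, adjusted p = 1.4e-24) on the log2 scale, a 2.19-fold and a 2.42-fold drop. At 4 h the log2 fold changes were -0.51 and -0.41. At 24 h its values (3621, 3504 and 3970 after 0.8 µg, 4236, 3931 and 3997 after 80 µg) overlapped control, with log2 fold changes of -0.14 (adjusted p = 0.38) and -0.01 (adjusted p = 0.957).

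B2m, which supplies the light chain of every class I molecule, had 8877, 9676 and 10063 normalised counts in control. At 4 h it overlapped control, with 8636, 9216 and 9315 after 0.8 µg and 11729, 9933 and 9172 after 80 µg. At 12 h it had 4214, 4016 and 4417 after 0.8 µg and 4378, 4245 and 4543 after 80 µg, so that the 6 libraries spanned a narrow range far under control. B2m fell at 12 h by 1.18 (SE 0.08, adjusted p = 1.7e-51) and by 1.12 (SE 0.08, adjusted p = 9.07e-47) on the log2 scale. At 4 h the log2 fold changes were -0.07 (adjusted p = 0.423) and 0.11 (adjusted p = 0.225), the latter turning to -0.050 when libraries were scaled by their totals. At 24 h the libraries held 9542, 9935 and 9528 after 0.8 µg and 11337, 11233 and 11924 after 80 µg. Only those of 80 µg lay above all control mice, with a log2 fold change of 0.27 (adjusted p = 0.00168), which was not a call.

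Tap1, a TAP subunit, differed by dose. Control mice had 531, 541 and 611 normalised counts. At 4 h there were 232, 223 and 195 after 0.8 µg but 493, 496 and 400 after 80 µg, and at 12 h 293, 263 and 252 after 0.8 µg and 376, 412 and 324 after 80 µg. At both times the libraries of 80 µg lay above those of 0.8 µg and below those of control, with no overlap. Tap1 fell after 0.8 µg by 1.36 (SE 0.13, adjusted p = 2.64e-24) at 4 h and by 1.05 (SE 0.13, adjusted p = 9.82e-16) at 12 h on the log2 scale. The second call was lost without replicate 3 of control (-0.99) and in a fit to the 6 samples compared (-0.97). After 80 µg the log2 fold changes of -0.27 (adjusted p = 0.0447) and -0.59 (adjusted p = 6.64e-06) were not called. At 24 h Tap1 had 705, 749 and 664 after 0.8 µg and 674, 852 and 777 after 80 µg, all above control, with log2 fold changes of 0.33 (adjusted p = 0.0187) and 0.46 (adjusted p = 0.000648).

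Tap2, the partner subunit, was the member with the largest fold drop at each dose at 4 h and at 12 h, but at 12 h this rested on replicate 2 of each dose. Without it the log2 fold change of Tap2 was -1.53 against -1.65 for H2-K1 after 80 µg, and -1.54 against -1.58 for Tapbpl after 0.8 µg. It had 217, 166 and 270 normalised counts in control, 22.2, 52.7 and 54.0 after 0.8 µg at 4 h and 59.0, 49.4 and 36.9 after 80 µg. At 12 h the values were 83.3, 63.2 and 61.1 after 0.8 µg and 79.5, 17.6 and 68.0 after 80 µg. No library at these times came near control, and the doses overlapped throughout. Tap2 fell by 2.28 (SE 0.34, adjusted p = 2.19e-10) after 0.8 µg and by 2.11 (SE 0.34, adjusted p = 2.44e-09) after 80 µg at 4 h on the log2 scale. At 12 h it fell by 1.61 (SE 0.33, adjusted p = 5.72e-06) and by 1.94 (SE 0.34, adjusted p = 3.63e-08). At 24 h it had 154, 144 and 171 after 0.8 µg and 136, 152 and 198 after 80 µg, which overlapped control (log2 fold changes -0.46 and -0.41, adjusted p = 0.279 and 0.337).

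Tapbp, which encodes tapasin, had 564, 539 and 628 normalised counts in control and 481, 502 and 516 after 0.8 µg at 4 h. After 80 µg at 4 h it had 352, 385 and 376, below all libraries of the lower dose. At 12 h it had 298, 237 and 290 after 0.8 µg and 252, 230 and 198 after 80 µg. At 24 h it had 1056, 972 and 883 after 0.8 µg and 1036, 1152 and 1023 after 80 µg, all above every control mouse, and the doses overlapped. Tapbp fell at 12 h by 1.07 (SE 0.11, adjusted p = 9.52e-20) and by 1.34 (SE 0.12, adjusted p = 7.48e-30) on the log2 scale. The call after 0.8 µg was lost without replicate 2 of that group (-0.96) and in a fit to the 6 samples compared (-0.99). At 24 h the log2 fold changes of 0.75 (SE 0.11, adjusted p = 3.46e-11) and 0.89 (SE 0.11, adjusted p = 8.92e-16) passed the adjusted p and not the size.

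Tapbpl, the tapasin relative that edits peptides outside the loading complex, had 131, 149 and 184 normalised counts in control. At 4 h it had 84.8, 80.4 and 87.4 after 0.8 µg and 60.2, 50.4 and 65.2 after 80 µg. At 12 h it had 42.2, 75.2 and 59.9 after 0.8 µg and 73.1, 78.5 and 73.9 after 80 µg, so all 12 libraries of these times were under control. Tapbpl fell after 80 µg at 4 h by 1.38 (SE 0.20, adjusted p = 9.69e-11), after 0.8 µg at 12 h by 1.35 (SE 0.20, adjusted p = 1.92e-10) and after 80 µg at 12 h by 1.02 (SE 0.20, adjusted p = 8.07e-07) on the log2 scale. The last call was lost without replicate 3 of control (-0.89), without replicate 1 of its own group (-0.997), with edgeR (-0.998) and in a fit to the 6 samples compared (-0.94). After 0.8 µg at 4 h the log2 fold change of -0.86 was not called, and it was (-1.01) with libraries scaled by totals. At 24 h the values of 183, 176 and 205 after 0.8 µg and 161, 176 and 150 after 80 µg overlapped control.

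Erap1, the trimming peptidase of the endoplasmic reticulum, was the member that went the other way. Control mice had 134, 119 and 108 normalised counts. At 4 h there were 464, 389 and 396 after 0.8 µg and 457, 431 and 322 after 80 µg, and at 12 h 206, 218 and 182 after 0.8 µg and 181, 186 and 159 after 80 µg. All 12 libraries lay above control, those at 4 h by the widest margin, and the doses overlapped. Erap1 rose at 4 h by 1.77 (SE 0.16, adjusted p = 7.7e-26) after 0.8 µg and by 1.72 (SE 0.16, adjusted p = 1.25e-24) after 80 µg on the log2 scale, a 3.42-fold and a 3.3-fold rise. At 12 h the log2 fold changes were 0.74 and 0.54 (adjusted p = 4.14e-05 and 0.00384) and were not called. At 24 h it had 152, 174 and 138 after 0.8 µg and 189, 146 and 181 after 80 µg, above control in all 6 libraries, with log2 fold changes of 0.36 (adjusted p = 0.094) and 0.50 (adjusted p = 0.0104).

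Nlrc5, the class I transactivator, had 206, 241 and 208 normalised counts in control. At 4 h it had 112, 94.8 and 103 after 0.8 µg and 147, 129 and 134 after 80 µg. At 12 h it had 104, 120 and 123.3 after 0.8 µg and 119, 109 and 115 after 80 µg. The 12 libraries of these times were all below control, and at 4 h those of 80 µg were above those of 0.8 µg. On the log2 scale Nlrc5 fell after 0.8 µg at 4 h by 1.07 (SE 0.16, adjusted p = 2.22e-10), a call lost without replicate 2 of control (-0.99). The other log2 fold changes, -0.68 after 80 µg at 4 h and -0.92 and -0.94 at 12 h, had adjusted p of 3.37e-05, 2.68e-08 and 8.72e-09 without reaching the size for a call. At 24 h the values of 207, 246 and 221 after 0.8 µg and 192, 239 and 191 after 80 µg overlapped control (log2 fold changes 0.04 and -0.08).

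The comparison of 80 µg with 0.8 µg at a fixed time holds the gate constant and asks what the dose changed in cells of like Timer colour. Tap1 at 4 h was the only called difference among the 9 members at the 3 times. There, on the log2 scale, it was higher after 80 µg by 1.09 (SE 0.13, adjusted p = 9.82e-15), a 2.13-fold difference, and 1 of 9 members called higher at 4 h stands beside 3.12% of all genes. At 12 h and at 24 h DESeq2 and edgeR called 0 of 9 members in either direction, beside 2.79% and 1.56% of all genes, and 3 members (H2-K1, Tap1, Tapbp) and 1 member (B2m) had an unadjusted p under 0.05. Below the size for a call, Tapbp at 4 h was lower after 80 µg (log2 fold change -0.43, SE 0.11, adjusted p = 0.00229) with no overlap of the doses. At 12 h H2-K1 was lower (-0.53, SE 0.13, adjusted p = 0.00266) and Tap1 higher (0.46, SE 0.13, adjusted p = 0.00808) after 80 µg, again with no overlap. Without replicate 3 of 0.8 µg at 12 h these were -0.67 and 0.42, with the adjusted p of both still under 0.05. B2m at 24 h was higher after 80 µg by 0.25 (SE 0.08, adjusted p = 0.0235). H2-D1, Tap2, Nlrc5 and Erap1 had adjusted p of at least 0.118 between doses at each time, which does not show that the doses acted alike on them. By the adjusted p alone 2, 2 and 1 members passed at 4 h, 12 h and 24 h, beside 12%, 6.27% and 5.93% of all genes. Markers differed between doses as well. At 4 h 4 of 9 CD4 T cell markers were called lower after 80 µg, Cd4 (-1.93), Cd3e (-1.02), Cd3g (-1.15) and Lck (-1.09). The myeloid marker Lyz2 (-2.40) was called lower too, beside 297 of 10848 genes. At 12 h Cd8a (-3.58) and Cd8b1 (-1.02) were called lower and Cd5 (1.65) higher, and at 24 h Cd8a (-2.51) lower. Their part in the dose results was not tested.

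**Figure D3:**
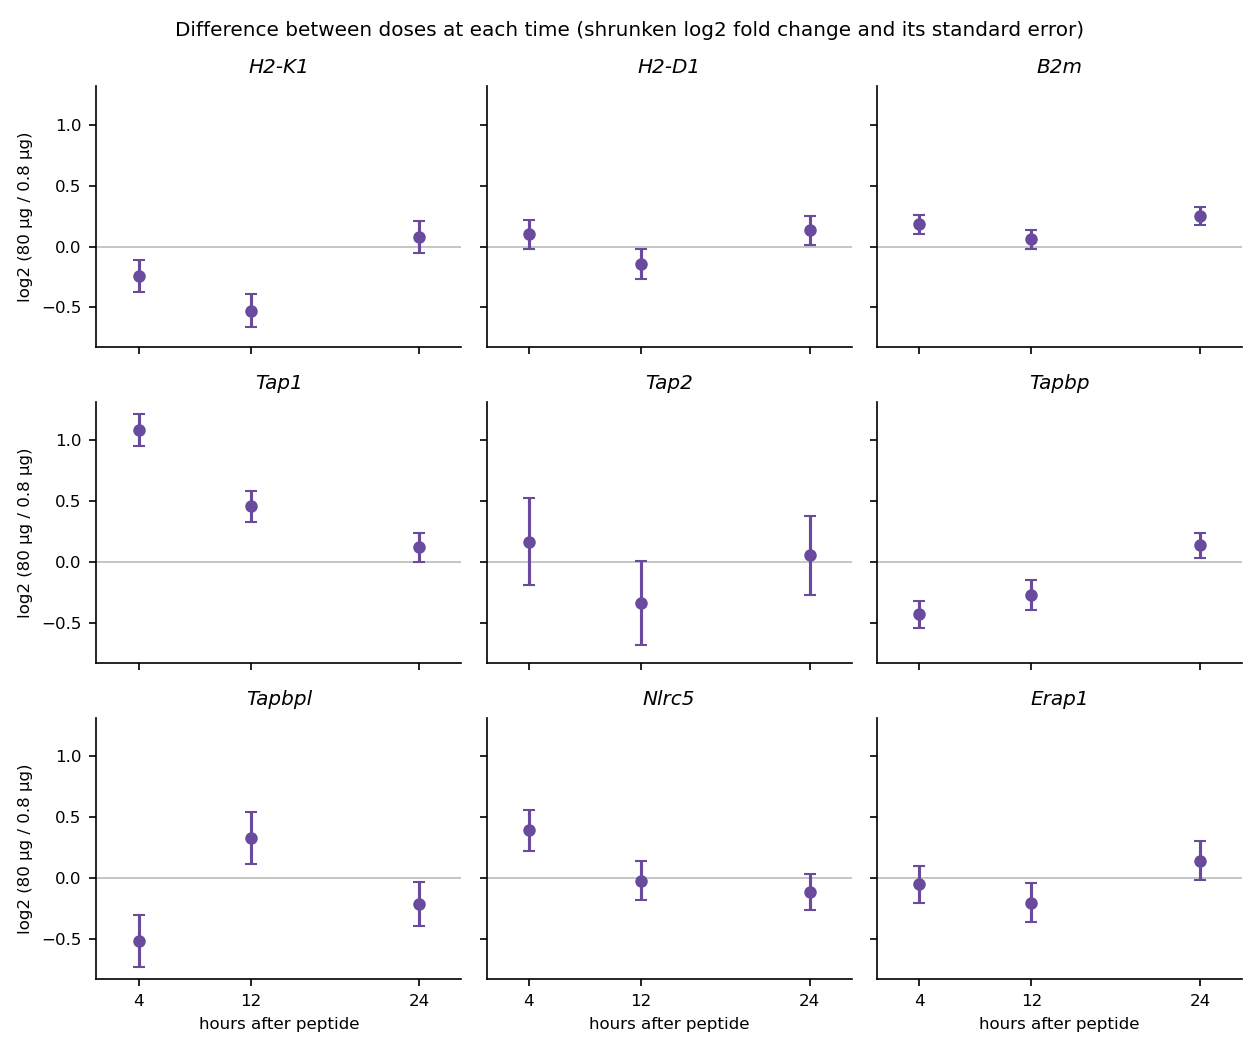
Log2 fold change between 80 µg and 0.8 µg for each member at 4, 12 and 24 h, with bars for the standard error. Tap1 stands at 1.09, 0.46 and 0.12, and Tapbp at -0.43, -0.27 and 0.14.

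Whether the dose effect itself differed between the times was tested with a likelihood ratio test of the dose by time term in the 18 immunised mice, for which 10.3% of 10037 genes had an adjusted p under 0.05. Of the 9 members, Tap1 (adjusted p = 2.53e-05) and Tapbp (adjusted p = 0.0109) passed. The dose effect on Tap1 was 1.09 at 4 h, 0.46 at 12 h and 0.12 at 24 h, while that on Tapbp was -0.43, -0.27 and 0.14. The Tapbp result was lost with edgeR (adjusted p = 0.0657), with libraries scaled by totals (0.0706) and without replicate 2 of 80 µg at 24 h (0.0676). H2-K1 (adjusted p = 0.0726) passed without replicate 3 of 0.8 µg at 12 h (0.00433) and in 3 other such fits, and Tapbpl (0.112) passed without replicate 2 of 0.8 µg at 12 h (0.0306). As the gate changed with time, a difference between times is also a difference between gates.

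Between 4 h and 12 h, B2m and Erap1 fell at both doses, 2 of 9 members each, beside 7.98% of all genes called lower for 0.8 µg and 9.1% for 80 µg. By the adjusted p alone 5 and 6 members passed, beside 39.1% and 42.9% of all genes. B2m fell by 1.10 (0.8 µg, adjusted p = 1.9e-44) and by 1.23 (80 µg, adjusted p = 1.81e-55) on the log2 scale, and Erap1 by 1.03 (adjusted p = 4.28e-10) and 1.19 (adjusted p = 3.23e-13). With libraries scaled by totals neither was called for 0.8 µg (-0.95 and -0.87), and the Erap1 call for 0.8 µg was also lost without replicate 1 at 4 h (-0.94) or replicate 3 at 12 h (-0.97). The heavy chains were lower at 12 h than at 4 h by less than the size for a call, with log2 fold changes of -0.57 and -0.86 for H2-K1 and -0.62 and -0.86 for H2-D1. Tap2 had log2 fold changes of 0.67 (adjusted p = 0.118) and 0.17 (adjusted p = 0.733), so no difference between 4 h and 12 h was detectable.

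From 12 h to 24 h most members were higher again. After 0.8 µg, 5 of 9 rose (B2m, Tap1, Tap2, Tapbp, Tapbpl) and after 80 µg 7 of 9, with H2-K1 and H2-D1 added, beside 17.1% and 16.7% of all genes called higher. Without replicate 1 of 0.8 µg at 12 h 7 of 9 rose after 0.8 µg as well, H2-K1 at 1.01 and H2-D1 at 1.06, and H2-D1 was also called without replicate 1 or 2 of 0.8 µg at 24 h (1.001 and 1.02). The difference between the doses in this rise was not tested by itself. By the adjusted p alone 9 and 8 of 9 members passed, beside 44% and 44.7% of all genes. Tapbp rose most, by 1.82 (SE 0.11, adjusted p = 8.49e-58) after 0.8 µg and by 2.23 (SE 0.11, adjusted p = 3.72e-86) after 80 µg on the log2 scale, a 3.53-fold and a 4.69-fold rise. After 0.8 µg this rank rested on replicate 2 at 12 h, without which Tapbp was at 1.72 and Tapbpl at 1.87. H2-K1 rose by 1.51 and H2-D1 by 1.26 after 80 µg, while after 0.8 µg their log2 fold changes were 0.90 and 0.99. The Tap1 rise after 80 µg (1.05) was no longer called with libraries scaled by totals (0.84) or in a fit to the 6 samples compared (0.96). It was also lost without replicate 3 at 12 h (0.96) or without replicate 2 at 24 h (0.97). The Tapbpl rise after 80 µg (1.10) was not called with libraries scaled by totals (0.90). Nlrc5 had log2 fold changes of 0.96 and 0.86 (adjusted p = 6.21e-09 and 1.09e-07) and was not called, though it was for 0.8 µg without replicate 1 at 24 h (1.01). Erap1 did not share in the rise, at -0.38 (adjusted p = 0.0428) after 0.8 µg and -0.04 (adjusted p = 0.876) after 80 µg.

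Ordered by their means, the groups of H2-K1, H2-D1, Tapbp and B2m began with those at 12 h, while the lowest group of Tap1, Tap2 and Nlrc5 was 0.8 µg at 4 h and that of Tapbpl 80 µg at 4 h. Neighbours in this order mostly overlapped. For B2m only the step from 80 µg at 12 h to 0.8 µg at 4 h separated the libraries of neighbouring groups, and for Tap2 only that from 0.8 µg at 12 h to 0.8 µg at 24 h. For Tap1, 4 of 6 steps had no overlap, among them that between 0.8 µg and 80 µg at 12 h. The same held for 4 of 6 steps of Tapbp, among them that between 80 µg and 0.8 µg at 4 h.

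Ratios between members within a library are free of the size factor and show which members moved apart. B2m to the sum of H2-K1 and H2-D1 was 0.997 ± 0.048 (SD, n = 3) in control, 1.44 ± 0.15 after 0.8 µg and 1.72 ± 0.07 after 80 µg at 4 h, 1.02 ± 0.17 and 1.34 ± 0.18 at 12 h, and 1.20 ± 0.12 and 1.33 ± 0.09 at 24 h. Only 0.8 µg at 12 h overlapped control in this ratio. H2-D1 to H2-K1 was 0.745 ± 0.048 in control and 1.04 ± 0.01 and 1.03 ± 0.10 after 80 µg at 4 h and 12 h, against 0.832 ± 0.093 and 0.811 ± 0.138 after 0.8 µg, and at 24 h it was 0.844 ± 0.030 and 0.875 ± 0.039 after 0.8 µg and 80 µg. Tap2 to Tap1 was 0.386 ± 0.070 in control, 0.203 ± 0.095 after 0.8 µg and 0.104 ± 0.014 after 80 µg at 4 h, 0.255 ± 0.025 and 0.155 ± 0.097 at 12 h and 0.223 ± 0.033 and 0.212 ± 0.039 at 24 h. Every immunised library lay below all control libraries in this ratio. Tapbpl to Tapbp was 0.267 ± 0.032 in control, 0.169 ± 0.008 and 0.159 ± 0.024 at 4 h, 0.222 ± 0.089 and 0.335 ± 0.042 at 12 h and 0.196 ± 0.032 and 0.152 ± 0.004 at 24 h, after 0.8 µg and 80 µg in turn. Its libraries overlapped control at 12 h and, after 0.8 µg, at 24 h. With 3 libraries against 3, the two-sided exact permutation test cannot give a p under 0.1, and over the 36 ratio tests the adjusted p was at least 0.164, so these shifts are a description.

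**Figure D4:**
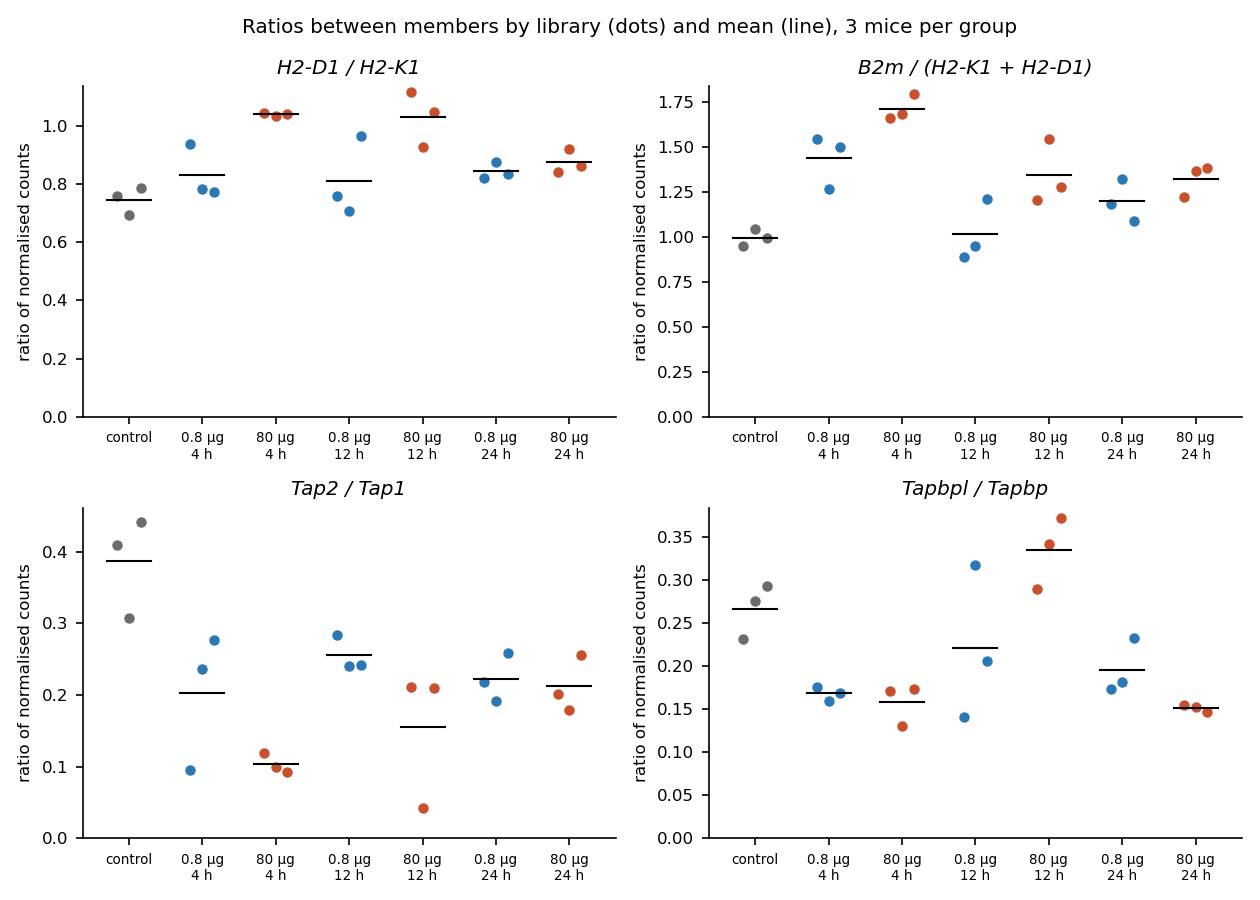
Ratios of normalised counts between members in each library (dots, grey for control, blue for 0.8 µg, red for 80 µg) and their mean (line), on axes that start at 0. By group mean B2m to heavy chain is highest after 80 µg at 4 h, where the mean of Tap2 to Tap1 is lowest, while the lowest single library of Tap2 to Tap1 is after 80 µg at 12 h (0.0427).

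Across the 21 libraries, which share 7 groups and so are not independent points, the log-scale values of H2-K1 and H2-D1 had a Pearson r of 0.95, Tap1 and Nlrc5 0.89 and H2-D1 and B2m 0.92. Tap1 and H2-K1 had r of 0.55. Erap1 had r of -0.72 with Tap2 and of 0.12 with B2m. Among 8744 genes whose mean level reached 20 normalised counts, the gene outside the list with the highest r was H2-Q7, a non-classical heavy chain of the same complex, for H2-K1 (0.95), Samhd1 for Tap1 (0.96), Gbp8 for Nlrc5 (0.96), Ndfip1 for Erap1 (0.97), mt-Rnr2 for Tapbp (0.97), Btg2 for H2-D1 (0.95), Arl4a for B2m (0.94), Lims1 for Tap2 (0.95) and Tnfaip8l1 for Tapbpl (0.95).

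The other heavy chains of the MHC class I family were mostly lower early too. Of 27 such genes 15 or 16 could be tested against control at 4 h and 12 h, and 9 (0.8 µg) and 11 (80 µg) fell at 4 h and 10 and 10 at 12 h, with none called higher, beside 23.4% and 25.1% of all genes called lower at 4 h and 20.5% and 20.1% at 12 h. The median log2 fold change was -1.74 and -1.59 at 4 h and -1.90 and -2.01 at 12 h (-2.04 with the 2 genes at 0 in that group set to a floor of 3 counts over the group). After 80 µg at 4 h Mr1, which presents vitamin metabolites, fell by 4.36 (SE 0.77, adjusted p = 1.07e-05), Cd1d1, which presents lipids to NKT cells, fell by 4.06 (SE 0.54, adjusted p = 5.81e-12), Fcgrt, the neonatal Fc receptor, fell by 3.20 (SE 0.90, adjusted p = 0.0048) and H2-M3, which presents formylated peptides, fell by 2.82 (SE 0.50, adjusted p = 1.75e-07) on the log2 scale. At 24 h 2 and 1 of 14 were called lower, beside 5.84% and 7.91% of all genes, among them H2-Q7 at both doses (-1.02 after 0.8 µg, -1.04 after 80 µg).

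Upstream of TAP, the proteasome genes divided. Of 6, Psmb8, Psmb9 and Psmb10, the catalytic subunits of the immunoproteasome, fell at 4 h after both doses, Psmb9 by 2.46 (SE 0.25, adjusted p = 1.07e-21) after 0.8 µg and by 1.36 (SE 0.23, adjusted p = 1.93e-08) after 80 µg on the log2 scale. Pomp, the assembly factor, and Psme1, a subunit of the PA28 cap, rose at 4 h (1.43 and 1.25 after 0.8 µg, 1.59 and 1.03 after 80 µg). At 12 h 1 gene rose at each dose (17.2% and 17.8% of all genes) and, after 80 µg, Psmb9 fell (20.1% of all genes were called lower). At 24 h 2 (0.8 µg) and 4 (80 µg) were called higher and none lower, beside 11.5% and 12.3% of all genes called higher at 24 h. At 4 h the 3 lower and 2 higher at each dose stand beside 23.4% and 17.3% (0.8 µg) and 25.1% and 18.4% (80 µg). Psmb9, whose exons overlap those of Tap1, was higher after 80 µg than after 0.8 µg at 4 h by 1.10 (SE 0.26, adjusted p = 0.000344), as Tap1 was. The median of the 6 log2 fold changes was -0.19 and -0.35 at 4 h and 0.97 and 1.01 at 24 h.

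Of 10 other peptidases that trim peptides and chaperones of the endoplasmic reticulum, 5 rose and 1 fell at 4 h at each dose, 6 rose and 1 fell at 12 h, and 6 rose and none fell at 24 h. Of all genes, 17.3% and 18.4% were called higher at 4 h, 17.2% and 17.8% at 12 h and 11.5% and 12.3% at 24 h, and 23.4% and 25.1%, 20.5% and 20.1%, and 5.84% and 7.91% were called lower. Their median log2 fold change against control lay between 0.89 and 1.82. After 80 µg at 4 h the cytosolic peptidases Thop1 and Lap3 rose by 4.74 (SE 0.49, adjusted p = 5.81e-17) and 3.91 (SE 0.19, adjusted p = 2.23e-89), and the chaperones Hspa5 and Canx by 3.39 (SE 0.13, adjusted p = 1.28e-150) and 2.06 (SE 0.11, adjusted p = 4.96e-74) on the log2 scale. Hspa5, Canx and Calr serve the folding of many secreted proteins and not of class I alone. None of the 10 was called between doses at any time. Of all genes, 635 of 10848 were called between doses at 4 h, 2.79% at 12 h and 1.56% at 24 h.

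**Figure D5:**
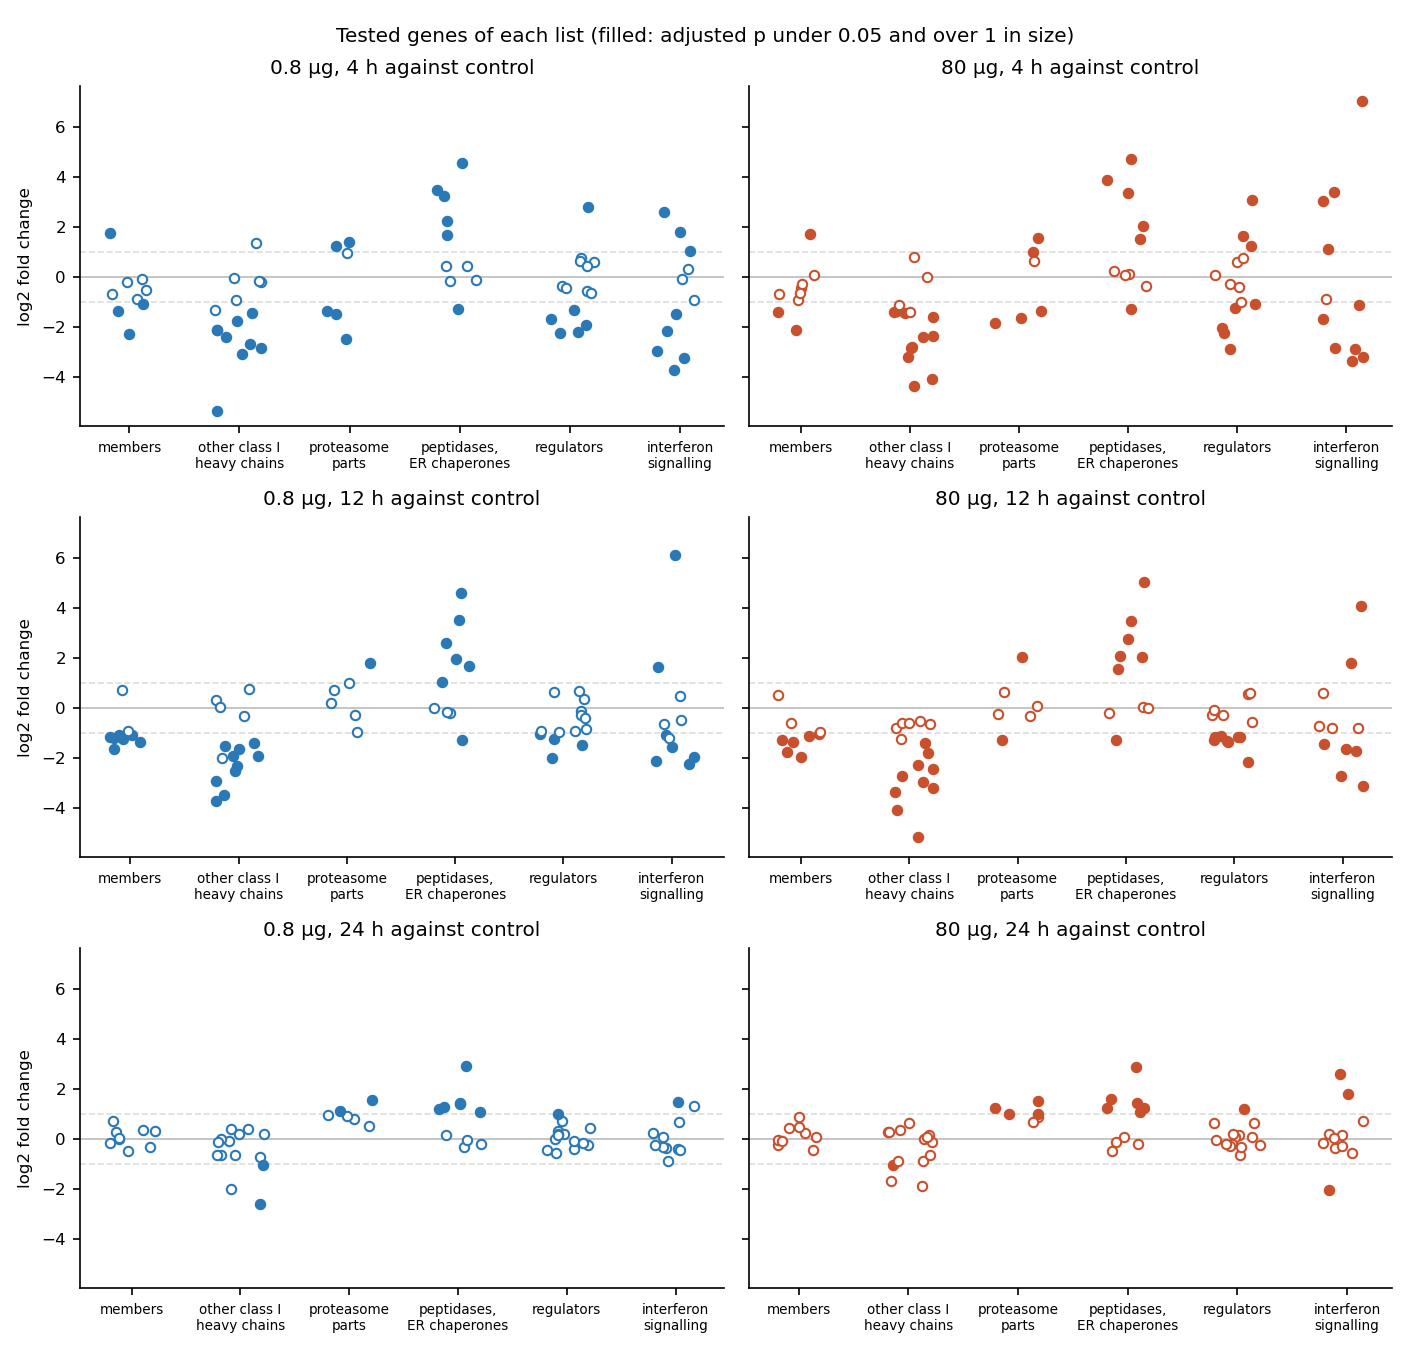
Shrunken log2 fold change from control of the tested genes in each list (points, spread sideways for legibility), filled where called, for the 6 immunised groups. Ifng, the highest point of the interferon list at 4 h after 80 µg (7.03), had no count in control, so its fitted value depends on the shrinkage.

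Of 14 regulators of class I genes, 5 fell at 4 h at each dose, 4 (0.8 µg) and 8 (80 µg) fell at 12 h, and none at 24 h. Of all genes, 23.4% and 25.1% were called lower at 4 h, 20.5% and 20.1% at 12 h and 5.84% and 7.91% at 24 h. At 4 h 1 regulator rose after 0.8 µg and 3 after 80 µg, beside 17.3% and 18.4% of all genes. At 24 h Stat2 rose at each dose (1.01 and 1.21 on the log2 scale), 1 of 14 beside 11.5% and 12.3% of all genes. Nfkb1, the p105/p50 subunit of NF-kB, rose at 4 h by 2.80 (SE 0.11, adjusted p = 3.72e-137) after 0.8 µg and 3.11 (SE 0.11, adjusted p = 4.89e-170) after 80 µg on the log2 scale. Among those that fell after 80 µg at 4 h were Rfxank, of the RFX complex, by 2.88 (SE 0.56, adjusted p = 1.77e-06), and the interferon regulatory factor Irf2 by 2.21 (SE 0.15, adjusted p = 1.15e-45). Stat2 was also the only regulator called between doses, at 4 h, higher by 1.27 (SE 0.28, adjusted p = 0.000104) after 80 µg. This 1 of 14 stands beside 3.12% of all genes called higher between doses at 4 h. In either direction 2.79% of all genes were called at 12 h and 1.56% at 24 h. The median log2 fold change of the 14 was -0.50 and -0.33 at 4 h, -0.86 and -1.12 at 12 h and 0.09 and 0.02 at 24 h.

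Of 11 genes of interferon signalling, 3 rose and 5 fell after 0.8 µg at 4 h and 4 rose and 6 fell after 80 µg, where 17.3% and 18.4% of all genes were called higher and 23.4% and 25.1% lower. Among those that fell were the receptor genes Ifngr1 (-3.23 and -2.83), Ifngr2 (-2.95 and -3.17) and Ifnar1 (-2.16 and -2.86), while the kinase Jak2 rose (2.62 and 3.06). The mean of Ifng, the cytokine that raises class I genes in many cells, was 0 normalised counts in control, 4.11 after 0.8 µg and 315 after 80 µg at 4 h, and 157 and 30.9 at 12 h. Socs1, an inhibitor of the pathway, was higher after 80 µg than after 0.8 µg at 4 h by 2.35 (SE 0.38, adjusted p = 2.64e-08), and Ifng by 5.23 (SE 0.76, adjusted p = 3.61e-09) on the log2 scale. Between doses, 2 of the 11 were called higher and 1 lower at 4 h, none at 12 h and 1 lower at 24 h. Of all genes, 3.12% were called higher and 297 of 10848 lower at 4 h. In either direction 2.79% were called at 12 h and 1.56% at 24 h. At 12 h 2 rose and 5 fell at each dose, beside 17.2% and 17.8% of all genes called higher and 20.5% and 20.1% lower. At 24 h 1 (0.8 µg, Usp18) and 2 (80 µg, Usp18 and Ifng) rose and 0 and 1 (Ifngr2) fell, beside 11.5% and 12.3% higher and 5.84% and 7.91% lower. The median log2 fold change of the 11 was -0.89 and -1.09 at 4 h, -1.06 and -0.80 at 12 h and -0.21 and 0.06 at 24 h.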

How the data were processed

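RNA of sorted CD4+ T cells was made into QuantSeq 3' mRNA libraries, 21 in all, 3 mice in each of 7 groups. Per the labels the submitters' processing notes name FastQC, STAR 2.5.2a, SAMtools, HTSeq and DESeq2 with mm10. The authors deposited a table of raw read counts per gene and a table of log2-scale rlog values from DESeq2, for which genes with few reads had been removed. The annotation release, the strand setting and any use of molecular identifiers were not given in the sources used here. All columns were mapped to samples by the sample descriptions. The 3 libraries of a group differed by more than sampling noise.

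From the counts, genes with at least 10 reads over all samples (15300) were fitted with DESeq2 1.42.0 in R 4.3.3, with normal-prior shrinkage, and called at an adjusted p under 0.05 and an absolute log2 fold change over 1, as in the study's methods. A single model of 7 groups, Wald tests and Benjamini-Hochberg adjustment over all genes tested were chosen here. A likelihood ratio test gave the dose by time term. Ratios were compared with exact permutation tests. The rlog values served correlations only. Alternatives were edgeR 4.0.16 (quasi-likelihood, TMM), scaling by library totals, no filter on low counts, adjusted p alone, unshrunken fold changes, a fit to the 6 samples compared, replicate number as a block, and leaving out each library. The steps were tested on simulated data. Labels call the samples replicates from separate mice, and floors of 3 counts cover counting error only.

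All 9 members were named. Other list genes were named by size of log2 fold change among those called, at most 4 per list and comparison described (some genes are not reported here), and a gene was named where the text singles it out after its values were seen (Psmb8, Psmb9, Psmb10, Pomp, Psme1, Calr, Stat2, Ifng, Usp18, Socs1, H2-Q7 at 24 h and the receptor genes). The members and lists were chosen with earlier results of these data known. Promoters came from the RefSeq table of GRCm38.p6.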

Additional observations from a re-analysis of the deposited data

Results flagged for a closer look

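Tap1 and Tapbp drew attention because their dose effect differed between the times in the test of the dose by time term in DESeq2. For Tap1 the dose effect spanned 0.965 on the log2 scale between its largest value at 4 h and its smallest at 24 h (adjusted p = 2.53e-05). For Tapbp it spanned 0.569 between 24 h and 4 h (adjusted p = 0.0109), and this was not past the threshold with edgeR, with libraries scaled by totals or without replicate 2 of 80 µg at 24 h. The sorting gate changed with the time, and the part of the gate cannot be told apart from that of time.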

How the results depend on the processing

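Of 1521 alternative values of the 117 member fold changes, 1430 kept direction and call and 29 had the other direction, in 16 results of which 0 were called. By the adjusted p alone, with no size needed, members passing numbered 7 and 8 at 4 h, 9 and 9 at 12 h and 3 and 4 at 24 h against control (0.8 µg and 80 µg), where 54.6% and 57.1%, 53.1% and 52.7%, and 36% and 39.1% of all genes passed. They numbered 2, 2 and 1 between doses at 4, 12 and 24 h (12%, 6.27% and 5.93% of all genes), 5 and 6 from 4 h to 12 h (39.1% and 42.9%) and 9 from 12 h to 24 h after 0.8 µg (44%). Scaling by totals gave 0 members from 4 h to 12 h after 0.8 µg, and 1 member with a dose by time term, as did edgeR. Leaving out each library gave 5 to 7 members from 12 h to 24 h after 0.8 µg, 1 to 2 members from 4 h to 12 h after 0.8 µg and 1 to 3 with a dose by time term. Scaling by totals turned the log2 fold change of B2m to -0.050 (80 µg, 4 h) and -0.11 (0.8 µg, 24 h), of Nlrc5 to -0.10 (0.8 µg, 24 h) and of Tapbpl to -0.16 (80 µg, 24 h) against control, and between doses at 24 h of H2-K1 to -0.027 and of Tap2 to -0.044. edgeR turned H2-D1 after 80 µg at 24 h to 0.0078. With 1 library left out, values against control at 24 h ranged from -0.028 to 0.060 for B2m and -0.034 to 0.12 for Nlrc5 after 0.8 µg, and from -0.060 to 0.057 for H2-D1, -0.026 to 0.22 for Tapbpl and -0.19 to 0.0069 for Nlrc5 after 80 µg. Between doses they ranged from -0.031 to 0.20 for H2-D1, -0.15 to 0.35 for Tap2 and -0.15 to 0.088 for Erap1 at 4 h, from -0.25 to 0.0047 for H2-D1, -0.68 to 0.095 for Tap2 and -0.091 to 0.021 for Nlrc5 at 12 h, and from -0.12 to 0.15 for Tap2 at 24 h. Between times after 80 µg they ranged from -0.18 to 0.61 for Tap2 (4 h to 12 h) and from -0.099 to 0.070 for Erap1 (12 h to 24 h). The cause was not tested.

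Scaling by totals moved the median of all genes by -0.13 at 4 h against control at both doses, by -0.19 after 80 µg at 24 h, and by 0.14, -0.12, 0.11 and -0.15 between times. The share of calls that were higher went from 66.2% to 54.0% (0.8 µg) and 60.9% to 41.4% (80 µg) at 24 h against control, from 57.0% to 39.2% between doses at 24 h, from 61.1% to 71.3% from 4 h to 12 h after 0.8 µg, and from 61.5% to 49.8% from 12 h to 24 h after 80 µg. Same-numbered libraries had correlations of their deviations from -0.18 to 0.21. Of 39 such pairs 10 were over 0.1 and 13 had their own number best, so no pairing by number held throughout. From 4 h to 12 h after 80 µg the same-numbered values were 0.13, 0.078 and 0.13, each above those with other numbers (at most -0.0037). Replicate 3 had 0.21 between doses at 4 h and 0.20 at 12 h. Whether the numbers mark a shared batch was not tested. With the replicate number as a block, all 117 member results kept their call, for example Tap1 at 4 h after 0.8 µg at -1.36, and the counts of members stayed at 4 and 3 at 4 h and 7 and 6 at 12 h. Low members such as Tap2 had the widest errors.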
